A study of Homo sapiens with 3 samples.

Results

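Transcripts of 46 genes for enzymes and readers that write, remove or recognise histone marks other than methylation of H3K36 and H3K27 were followed in KMS11 myeloma cells after hairpins against MMSET. The members are a list of gene names, drawn up with earlier results of these data known, and the rule for them uses no measured value. Where a gene had several probe sets, the brightest on average over the 3 arrays stood for it. All 46 had a probe set among 19775 named genes, and 45 were tested, that is, their signal exceeded the median of the array on at least 1 array. The member left out was SETD1A, with signals of 18.9 with shMMSET#2, 8.91 with shMMSET#4 and 41.0 with shLuc. Across all genes 67.2% passed this filter.

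KMS11 is an established human multiple myeloma line with the t(4;14) translocation, which raises expression of MMSET (current symbol NSD2). Cells were infected with a lentivirus for shMMSET#2, for shMMSET#4 or, as the control, for shLuc, a hairpin against luciferase, and total RNA was taken at 48 h. All groups shared the cell line, lentiviral infection with polybrene and the time, and the labels mention no selection of infected cells. Each group was 1 array, so no p-value was computed, both comparisons with shLuc share that array, and a difference describes these arrays only.

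Histone-modifying enzymes set or remove acetyl and methyl groups on histone tails. Acetylation and methylation of H3K4 mark active promoters and enhancers, methylation of H3K9 marks silent chromatin, and monomethylation of H4K20 is tied to the cell cycle. NSD2 itself dimethylates H3K36, a mark that covers gene bodies and intergenic regions and limits the spread of the H3K27 methylation set by Polycomb.

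The targeted gene was measured by 6 probe sets. On the brightest, NSD2 had signals of 7032 with shMMSET#2 and 7476 with shMMSET#4, against 10300 with shLuc, which is 1.46-fold and 1.38-fold lower. Of the others, 1 read 335 with shMMSET#2 and 1260.1 with shMMSET#4, against 2165 with shLuc, another read 227 with shMMSET#2 and 403 with shMMSET#4, against 1239 with shLuc, and a further one read 389 with shMMSET#2 and 1054 with shMMSET#4, against 1492 with shLuc. These 3 were 3.83-fold to 6.45-fold lower with shMMSET#2, and with shMMSET#4 1.42-fold to 3.07-fold. Of the remaining ones, the brighter read 3408 with shMMSET#2 and 5139 with shMMSET#4, against 5617 with shLuc, 1.65-fold and 1.09-fold lower. The dimmer read 709 with shMMSET#2 and 1063 with shMMSET#4, against 1027 with shLuc, 1.45-fold lower and 1.04-fold higher. With shMMSET#2 all 6 probe sets were below shLuc, with a median log2 ratio of -1.33, and with shMMSET#4 5 of 6 were, with a median of -0.48. All 6 NSD2 probe sets were higher with shMMSET#4 than with shMMSET#2. The median probe set signal of an array was 62.0 with shMMSET#2, 59.5 with shMMSET#4 and 77.4 with shLuc, although the trimmed means were equal. The 3′ minus 5′ signal of the ACTB control, a sign of RNA quality, was 1.14 on the log2 scale with each MMSET hairpin and 1.70 with shLuc. That of the GAPDH control was 0.10 with shMMSET#2, 0.002 with shMMSET#4 and 0.04 with shLuc, and did not set shLuc apart. The part of RNA quality in the results below was not tested. All 10 plasma cell markers, among them SDC1 and TNFRSF17, were above the array median on every array, with a summed signal of 78127 with shMMSET#2, 108518 with shMMSET#4 and 130144 with shLuc. JCHAIN alone gave 40928, 39387 and 55012 of these sums, in that order, whereas CD79A gave 129, 153 and 154. Not every marker followed the sum. With shMMSET#4 TNFRSF17 read 21560, PRDM1 6158 and CD38 151, against 18258, 5403 and 94.4 with shLuc. With shMMSET#2 CD38 alone was above shLuc, at 129. The remaining plasma cell markers were below shLuc with each hairpin. Of 4 measured mature B cell markers 3 were above the median with each MMSET hairpin and 2 with shLuc. Of 6 T and NK cell markers 1 was above the median with each MMSET hairpin and 3 were with shLuc, and of 5 measured myeloid markers 2 were with shMMSET#2, 1 with shMMSET#4 and 1 with shLuc. Of 5 fibroblast and stroma markers 2 were with shMMSET#2, 1 with shMMSET#4 and 2 with shLuc. The only measured erythroid marker, HBB, was above it on every array. Of 5 epithelial markers 3 were above it with shMMSET#2, 4 with shMMSET#4 and 4 with shLuc, led by EPCAM at 4391 with shMMSET#2, 10651 with shMMSET#4 and 8099 with shLuc, whereas KRT19 stayed at 4.44 or below. The part of these marker levels in the results was not tested.

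A member is called lower or higher where its signal differed at least 1.5-fold, and "fold" refers to the ratio of floored signals. With shMMSET#2, 6 of 45 members (13.3%) were lower and 4 (8.89%) were higher than with shLuc, against 22.5% and 16.2% of all 13296 tested genes. With shMMSET#4, 5 members (11.1%) were lower and 6 (13.3%) were higher, against 20.6% and 17.3%. Between the hairpins, 3 members were lower and 4 were higher with shMMSET#4 than with shMMSET#2, against 13.6% and 16.9% of all tested genes. In all 3 comparisons and each direction the share of members was below that of all tested genes, and no excess of changed members was seen. Members were mostly bright, 42 of them lying above the 75th percentile on at least 1 array. Among the 8195 genes that bright, 16.6% were lower and 17.1% higher with shMMSET#2, and 14.0% were lower and 17.1% higher with shMMSET#4, while between the hairpins 10.2% were lower and 13.1% higher with shMMSET#4. The median log2 ratio over the members was 0.01 with shMMSET#2, where it was -0.04 over all tested genes, and -0.12 with shMMSET#4, where it was -0.02. The signal cannot tell fewer cells with a transcript from less transcript per cell.

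**Figure D1:**
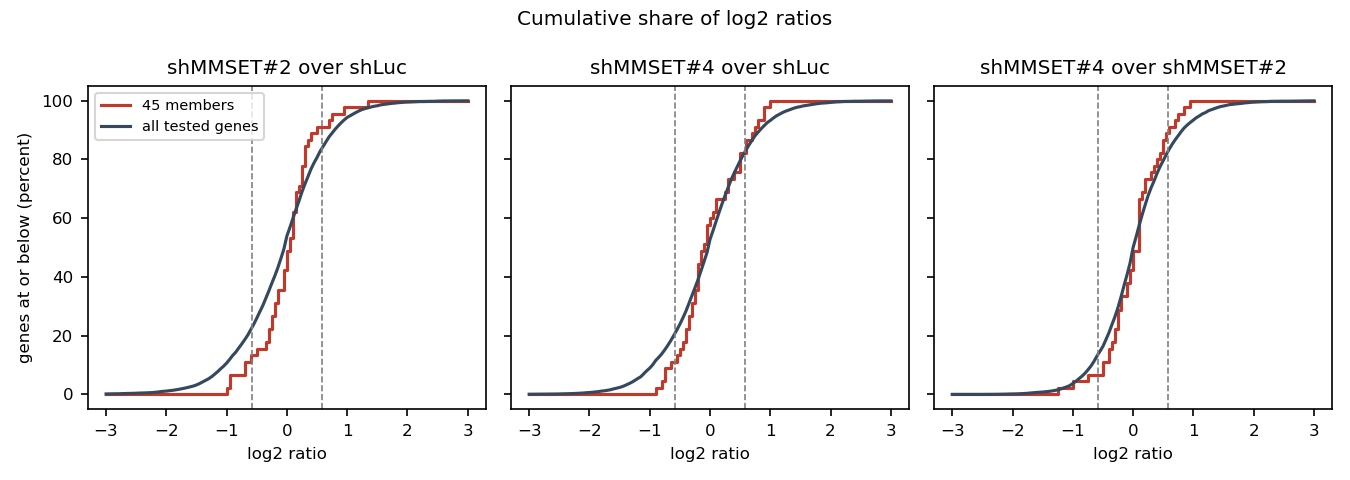
Cumulative share, in percent, of log2 ratios of MAS5 signal for the 45 tested members (red steps) and all 13296 tested genes (dark line) in 3 comparisons, with dashed lines at 1.5-fold. In the comparison of shMMSET#2 with shLuc, 6 members lie at or below the lower dashed line and 4 at or above the upper one.

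In place of replicates, the ratio between the MMSET hairpin arrays served as the yardstick of spread, and any true difference between the hairpins widens it. It leaves out any deviation of the shLuc array, whose median signal and ACTB 3′ minus 5′ value lay apart from both. The yardstick may therefore be too narrow for ratios over shLuc. On the GAPDH control the shLuc array lay between the hairpin arrays. In the brightest decile, 95% of the 1330 genes had a ratio of at most 1.85-fold between these arrays, and in the next deciles at most 1.99-fold and 2.12-fold. Of the members, KMT2E and KAT2B alone differed from shLuc by more than this 95% limit of their own decile. KMT2E did so with each hairpin and KAT2B with shMMSET#2. All other calls of members against shLuc are inside that spread. The share of all tested genes past these limits against shLuc was not computed, so whether KMT2E and KAT2B stand out was not tested. Past 2-fold with shMMSET#2, 10.7% of all tested genes were lower and 5.69% higher, against 1 member each way.

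Scaling bears on every direction given here. With all arrays set to the same median signal, all tested genes together had a median log2 ratio of 0.25 with shMMSET#2 and 0.34 with shMMSET#4. The members lower and higher became 3 and 9 with shMMSET#2 and 0 and 14 with shMMSET#4, while 13.2% and 30.1% of all tested genes were lower and higher with shMMSET#2, and 10.1% and 34.7% with shMMSET#4. With quantile normalization 15.9% of all tested genes were lower and 21.5% higher with shMMSET#4, and 5 members were lower and 8 higher. The calls of KMT2E, KMT5A, KAT2A and KAT2B against shLuc did not turn direction in any alternative tried. All of these genes have signals well above the floor, so the floors could not turn their calls, and the filters change no ratio. For KAT2A and KAT2B, with 1 probe set each, the probe set summaries could not do so either. The same-median scaling only raises ratios over shLuc, so it could not turn the higher calls of KMT5A, KAT2A and KAT2B.

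**Figure D2:**
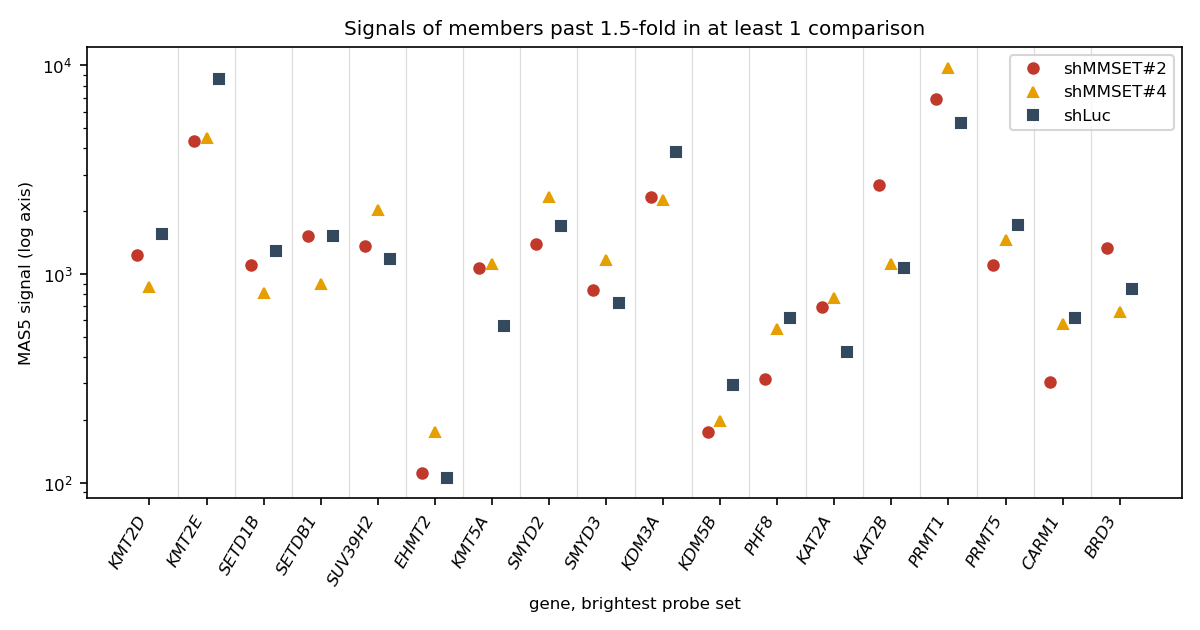
MAS5 signal (log axis) of the brightest probe set of the 18 members past 1.5-fold in at least 1 of the 3 comparisons, with 1 array each for shMMSET#2 (red circles), shMMSET#4 (orange triangles) and shLuc (dark squares). KMT2E sits at 4349.6 and 4505 with the MMSET hairpins and at 8641 with shLuc, and KAT2B is high with shMMSET#2 alone, at 2673.

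In the list of H3K4 methyltransferases, KMT2E was the lowest member with shMMSET#4. KMT2E, also called MLL5, carries a SET domain and a PHD finger that reads trimethylated H3K4, and is not an established methyltransferase. Its signals were 4349.6 with shMMSET#2 and 4505 with shMMSET#4, against 8641 with shLuc. The MMSET hairpin arrays were alike and both lay under shLuc, 1.99-fold and 1.92-fold lower. A second probe set read 4257 with shMMSET#2 and 4209.7 with shMMSET#4, against 8577 with shLuc. The remaining one, the only one without an _x_at or _s_at ending (marks of probes shared between transcripts), read 1396 with shMMSET#2 and 1944 with shMMSET#4, against 3913 with shLuc. All 3 KMT2E probe sets were thus lower with each hairpin. Under the same-median scaling its log2 ratio stood at -0.67 with shMMSET#2 and -0.56 with shMMSET#4, the second of which is short of 1.5-fold.

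KMT2D, a catalytic subunit of the complexes that monomethylate H3K4 at enhancers, had signals of 1235 with shMMSET#2 and 864 with shMMSET#4, against 1549.7 with shLuc. With shMMSET#4 it was 1.79-fold lower, and with shMMSET#2 1.26-fold. Of its 3 probe sets above the median, all were lower with shMMSET#4. SETD1B, a catalytic subunit of the COMPASS complexes at promoters, read 1109 with shMMSET#2, 815 with shMMSET#4 and 1295 with shLuc on its single probe set, and was 1.59-fold lower with shMMSET#4. KMT2C, the paralog of KMT2D, read 2223 with shMMSET#2 and 2311 with shMMSET#4, against 3236 with shLuc, which is 1.46-fold and 1.40-fold lower and short of the threshold. All 5 of its probe sets above the median lay under shLuc with each hairpin. The dimmer ones were 2.00-fold, 1.68-fold, 1.62-fold and 1.45-fold lower with shMMSET#4. With shMMSET#2 the first of these was 1.56-fold lower and the rest stayed inside 1.22-fold. KMT2A, the gene that is rearranged in mixed-lineage leukaemia, read 691 with shMMSET#2, 507 with shMMSET#4 and 636.5 with shLuc, inside 1.26-fold. Of its dimmer probe sets, 2 were 1.64-fold and 1.67-fold lower with shMMSET#4. Another was 1.61-fold lower with shMMSET#2, and a further one at least 1.81-fold higher with it. Of its 8 probe sets above the median, 5 were higher with shMMSET#2 and 7 were lower with shMMSET#4. SETD7, which monomethylates H3K4 and non-histone proteins, read 5495 with shMMSET#2, 6248 with shMMSET#4 and 5214 with shLuc, and its dim second probe set was 1.57-fold lower with shMMSET#2 but 1.54-fold higher with shMMSET#4. With shMMSET#4 3 of the 6 tested genes of this role were lower and none was higher, with a median log2 ratio of -0.58, and with shMMSET#2 1 was lower and none higher, with a median of -0.28. Over all tested genes 20.6% were lower with shMMSET#4 and 22.5% with shMMSET#2. KMT2E, not an established methyltransferase, is among those called here with shMMSET#4 and is the only one called with shMMSET#2. No member was 1.5-fold lower with shMMSET#4 under the same-median scaling.

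**Figure D3:**
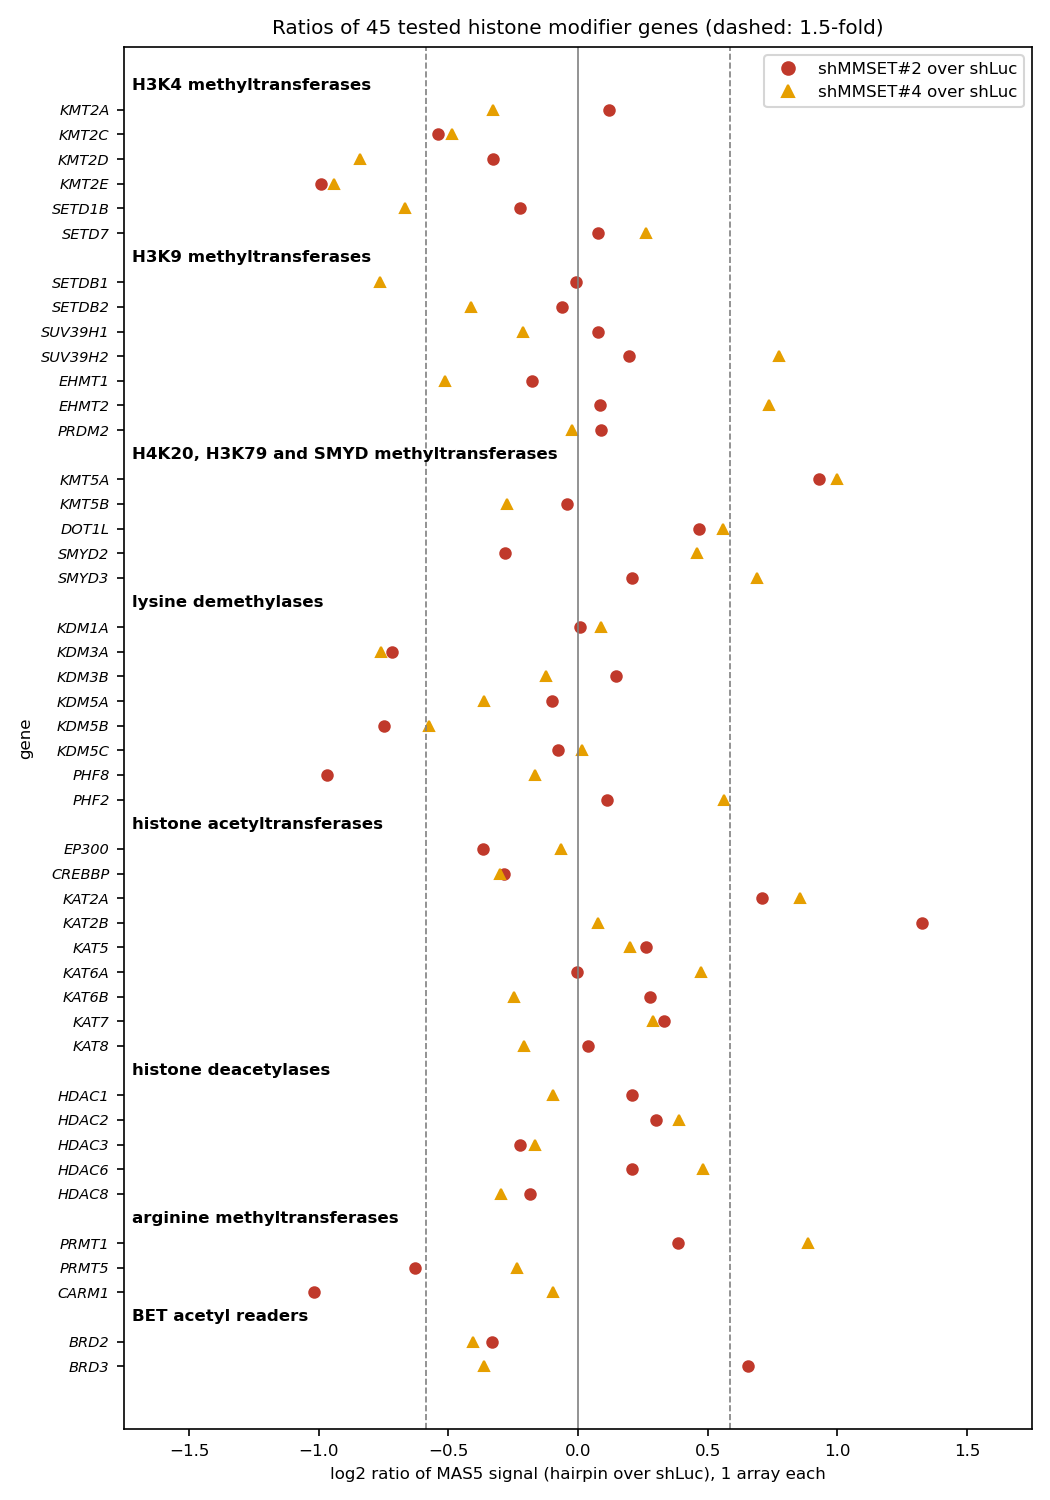
Log2 ratio of MAS5 signal of each of the 45 tested members, by role, for shMMSET#2 (red circles) and shMMSET#4 (orange triangles) over shLuc, 1 array each, with dashed lines at 1.5-fold. KMT2E lies left of the dashed line with each hairpin, KMT5A and KAT2A lie right of it with each, and the 5 histone deacetylases stay between the lines.

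Among writers of H3K9 methylation no member passed 1.5-fold with shMMSET#2, where the 7 log2 ratios ran from -0.18 to 0.20. With shMMSET#4, SUV39H2 and EHMT2 were higher and SETDB1 was lower. Of all tested genes 22.5% were lower and 16.2% higher with shMMSET#2, and 20.6% and 17.3% with shMMSET#4. SUV39H2, a trimethylase of pericentromeric H3K9, read 1359 with shMMSET#2 and 2027 with shMMSET#4, against 1186 with shLuc. It was 1.71-fold higher with shMMSET#4, and its other probe set was higher with each hairpin, reading 329 with shMMSET#2 and 416 with shMMSET#4, against 206 with shLuc. Its paralog SUV39H1 read 656 with shMMSET#2, 536 with shMMSET#4 and 622 with shLuc and stayed inside 1.16-fold of shLuc. SETDB1, the methyltransferase that TRIM28 brings to retroelements, read 1518 with shMMSET#2, 899.6 with shMMSET#4 and 1529 with shLuc. It was 1.70-fold lower with shMMSET#4, but a dimmer probe set read 302 with shMMSET#2, 281 with shMMSET#4 and 271 with shLuc and did not follow.

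EHMT2, or G9a, forms a heterodimer with EHMT1 that dimethylates H3K9. On its brightest probe set EHMT2 read 112 with shMMSET#2 and 176 with shMMSET#4, against 106 with shLuc, and was 1.67-fold higher with shMMSET#4. A second EHMT2 probe set read 12.9 with shMMSET#2 and 25.6 with shMMSET#4, against 158 with shLuc, the opposite direction, so that the direction of EHMT2 depends on the probe set. EHMT1 read 1928 with shMMSET#2, 1530.4 with shMMSET#4 and 2181 with shLuc, which is 1.13-fold and 1.43-fold lower. A dim EHMT1 probe set was 1.72-fold lower with each. Another went the opposite way, at least 2.06-fold higher with shMMSET#2 and at least 1.15-fold higher with shMMSET#4. The brightest probe sets of SETDB2 and PRDM2 stayed inside 1.33-fold with each hairpin. Other SETDB2 probe sets disagreed, 1 being 1.70-fold and 1.61-fold higher with shMMSET#2 and shMMSET#4 and another 2.05-fold lower with shMMSET#4, and a dimmer PRDM2 probe set was 1.57-fold lower with shMMSET#4. Leaving out the _x_at and _s_at probe sets, SETDB2 was called higher with each hairpin and PRDM2 lower with shMMSET#4.

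KMT5A was higher with each MMSET hairpin. KMT5A, earlier called SETD8, is the sole enzyme that monomethylates H4K20 and is needed in S phase and mitosis. It read 1071 with shMMSET#2 and 1123 with shMMSET#4, against 562 with shLuc, which is 1.91-fold and 2.00-fold higher. All 4 KMT5A probe sets lay above shLuc with each hairpin, the others by log2 ratios of 0.28 to 1.15 with shMMSET#2 and 0.23 to 0.47 with shMMSET#4. With the mean over its probe sets the log2 ratio was 0.72 with shMMSET#2 and 0.50 with shMMSET#4, the second of which is short of 1.5-fold. KMT5B, which adds further methyl groups to H4K20, read 1465 with shMMSET#2, 1248 with shMMSET#4 and 1511 with shLuc and stayed inside 1.21-fold, whereas another of its probe sets read 797 with shMMSET#2 and 762 with shMMSET#4, against 532 with shLuc. DOT1L, the methyltransferase of H3K79, read 401 with shMMSET#2 and 427 with shMMSET#4, against 290.1 with shLuc, 1.38-fold and 1.47-fold higher and short of the threshold, and its second probe set was level at 243 with shMMSET#2, 239 with shMMSET#4 and 247 with shLuc. SMYD3, a lysine methyltransferase of the SET and MYND type, read 838 with shMMSET#2, 1169.9 with shMMSET#4 and 726 with shLuc on its single probe set and was 1.61-fold higher with shMMSET#4. SMYD2 read 1398 with shMMSET#2 and 2336 with shMMSET#4, against 1699.5 with shLuc, and was 1.67-fold higher with shMMSET#4 than with shMMSET#2.

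**Figure D4:**
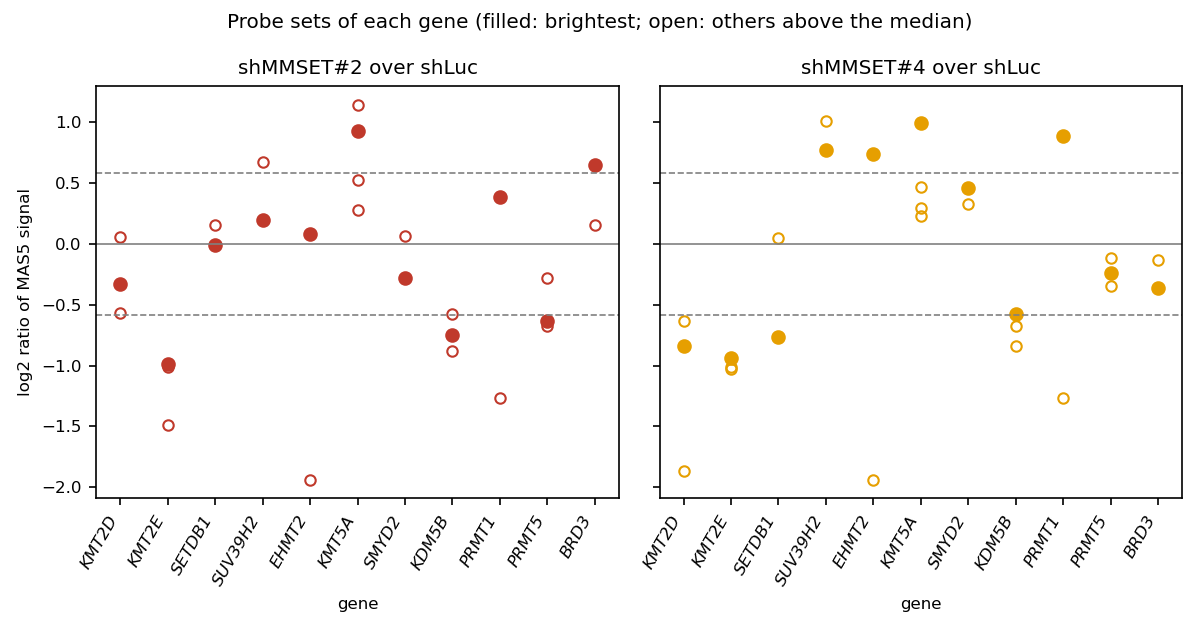
Log2 ratios of MAS5 signal over shLuc for every probe set above the array median, for the members past 1.5-fold that have more than 1 such probe set (filled, brightest; open, others), shMMSET#2 left and shMMSET#4 right. The 3 KMT2E probe sets lie at or below -0.94 with each hairpin, whereas EHMT2 and PRMT1 have probe sets on opposite sides of 0 with shMMSET#4.

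Of the 8 lysine demethylases 3 were lower with shMMSET#2 and 1 was lower with shMMSET#4, and none was higher with either, where 22.5% and 20.6% of all tested genes were lower. PHF8 with shMMSET#2 was the 1 lower call left among them under the same-median scaling, where PHF2 was called higher with shMMSET#4. KDM3A, which removes methyl groups from H3K9 and is a known hypoxia-induced gene, read 2338 with shMMSET#2 and 2272 with shMMSET#4, against 3848 with shLuc. It was 1.65-fold and 1.69-fold lower. This rests on 1 probe set, since its second, at 1.73 or below on all arrays, gave no reading. KDM5B, a demethylase of H3K4, read 175 with shMMSET#2 and 198 with shMMSET#4, against 295 with shLuc, and was 1.68-fold and 1.49-fold lower, of which 1.49-fold is just outside the threshold. All 3 KDM5B probe sets above the median were lower with each hairpin. PHF8, which removes methyl groups from H3K9 and H4K20, read 314 with shMMSET#2, 548 with shMMSET#4 and 614 with shLuc. With shMMSET#2 it was 1.95-fold lower, against 1.12-fold with shMMSET#4, on the single probe set above the median. PHF2, its relative, read 604 with shMMSET#2, 825 with shMMSET#4 and 559 with shLuc. KDM1A, or LSD1, the demethylase of mono- and dimethylated H3K4 in the CoREST complex, was level at 1316 with shMMSET#2, 1392 with shMMSET#4 and 1310.4 with shLuc. The brightest probe sets of KDM5A, KDM5C and KDM3B stayed inside 1.29-fold of shLuc with each hairpin. The other KDM5C probe set was 1.46-fold lower with shMMSET#2 and 2.23-fold with shMMSET#4, and 1 of the other KDM5A probe sets was 1.76-fold and 1.56-fold higher. Under the same-median scaling the log2 ratio of KDM3A was -0.40 with shMMSET#2 and -0.38 with shMMSET#4, and that of PHF8 with shMMSET#4 turned to 0.22.

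Among the 9 acetyltransferases only the paralogs KAT2A and KAT2B were called against shLuc, 2 higher with shMMSET#2 and 1 with shMMSET#4. Of all tested genes 16.2% and 17.3% were higher. Under the same-median scaling KAT6B and KAT7 were also called higher with shMMSET#2, and KAT6A and KAT7 with shMMSET#4. KAT2A, or GCN5, and KAT2B, or PCAF, are alternative catalytic subunits of the SAGA-type complexes that acetylate H3K9. KAT2A read 695 with shMMSET#2 and 768 with shMMSET#4, against 425 with shLuc, which is 1.63-fold and 1.81-fold higher. KAT2B read 2673 with shMMSET#2, 1123 with shMMSET#4 and 1065 with shLuc. It was 2.51-fold higher with shMMSET#2 and level with shMMSET#4, at 1.05-fold, so that the hairpin arrays differed 2.38-fold from each other. KAT2A and KAT2B have 1 probe set each, so no second reading bears on either. On their brightest probe sets EP300 and CREBBP, the paralogous coactivators that acetylate H3K27 among other sites, were inside 1.29-fold and 1.23-fold of shLuc. The other EP300 probe set was 1.40-fold lower with shMMSET#2 and 1.12-fold higher with shMMSET#4. A dim CREBBP probe set was at least 2.13-fold higher with shMMSET#2 and at least 1.03-fold higher with shMMSET#4. KAT6A read 1699 with shMMSET#2, 2365 with shMMSET#4 and 1703 with shLuc, and the brightest probe sets of KAT5, KAT6B, KAT7 and KAT8 stayed inside 1.26-fold with each hairpin. Dimmer probe sets differed from these in size or direction. That of KAT8 was 1.54-fold and 1.89-fold lower, and KAT8 was called lower with each hairpin when the _x_at and _s_at probe sets were left out. A KAT6A probe set was 1.56-fold and 1.62-fold lower, a KAT6B probe set was 2.24-fold lower with shMMSET#4, and a KAT5 probe set was 1.70-fold higher with shMMSET#2.

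Taking the brightest probe set of each, the 5 deacetylases did not pass 1.5-fold in any comparison, although under the same-median scaling HDAC2 was called higher with each hairpin and HDAC6 with shMMSET#4. Most tested genes did not pass it either. Of all tested genes 22.5% were lower and 16.2% higher with shMMSET#2, and 20.6% and 17.3% with shMMSET#4. Between the hairpins 13.6% were lower and 16.9% higher with shMMSET#4. HDAC1, a catalytic subunit of the NuRD, SIN3 and CoREST complexes, read 11869.7 with shMMSET#2, 9615 with shMMSET#4 and 10284 with shLuc. HDAC2, its paralog, read 4715 with shMMSET#2 and 5024 with shMMSET#4, against 3833 with shLuc, at most 1.31-fold higher, while its dim second probe set read 150.3 with shMMSET#2, 85.1 with shMMSET#4 and 139 with shLuc, 1.64-fold lower with shMMSET#4. HDAC6, a largely cytoplasmic deacetylase of tubulin, read 549.9 with shMMSET#2, 664 with shMMSET#4 and 476 with shLuc. HDAC3 and HDAC8 stayed inside 1.23-fold on their brightest probe sets, while a dimmer HDAC8 probe set was 1.93-fold higher with each hairpin, at 260.1 with shMMSET#2 and 261 with shMMSET#4 against 135 with shLuc.

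The 3 arginine methyltransferases went different ways. CARM1, which methylates H3R17 as a coactivator, read 303 with shMMSET#2, 576 with shMMSET#4 and 615 with shLuc. Its single probe set was 2.03-fold lower with shMMSET#2, where it was the lowest member, but 1.07-fold lower with shMMSET#4. PRMT5, the enzyme of symmetric dimethylation, read 1106 with shMMSET#2, 1452 with shMMSET#4 and 1712 with shLuc, which is 1.55-fold and 1.18-fold lower, and all 3 of its probe sets lay under shLuc with each hairpin. PRMT1, the main asymmetric dimethylase, read 6893 with shMMSET#2 and 9764 with shMMSET#4, against 5279 with shLuc, 1.31-fold and 1.85-fold higher. A dim PRMT1 probe set pointed the other way, with 9.03 with shMMSET#2 and 26.9 with shMMSET#4 against 99.2 with shLuc. Under the same-median scaling the log2 ratio of PRMT5 was -0.31 with shMMSET#2 and turned to 0.14 with shMMSET#4, and that of CARM1 turned to 0.29 with shMMSET#4.

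BRD3 and BRD2 are BET proteins, which bind acetylated histones through bromodomains and are targets of BET inhibitors. BRD3 read 1334 with shMMSET#2 and 659 with shMMSET#4, against 848 with shLuc. With shMMSET#2 it was 1.57-fold higher, whereas shMMSET#4 left it 1.29-fold lower, a direction that turned to a log2 ratio of 0.02 under the same-median scaling, and the hairpin arrays differed 2.02-fold. Its second probe set went the same ways by less, with log2 ratios of 0.15 and -0.13. BRD2 read 2455 with shMMSET#2 and 2335 with shMMSET#4, against 3091 with shLuc, inside 1.32-fold.

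Members near the threshold show how far the counts depend on it. With shMMSET#2, PRMT5 at 1.55-fold lower was just inside and KMT2C at 1.46-fold just outside, and BRD3 at 1.57-fold higher was inside and DOT1L at 1.38-fold outside. With shMMSET#4, SETD1B at 1.59-fold lower and SMYD3 at 1.61-fold higher were inside, and KDM5B at 1.49-fold lower and PHF2 at 1.48-fold higher were outside.

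Promoter sequence was set beside these readings for 5 members chosen after their values were seen. KMT2E and KDM3A are shown because they were lower, and KMT5A and KAT2A because they were higher, past 1.5-fold in each comparison with shLuc. KAT2B is shown as the paralog of KAT2A that was high with shMMSET#2 alone. The sequences are the 250 bases before the first listed RefSeq start of each gene, build GRCh38.p14, 5′ to 3′ on the strand of the gene, and capitals mark matches to the motifs named below.
KMT2E promoter, chr7:105013955-105014204, plus strand: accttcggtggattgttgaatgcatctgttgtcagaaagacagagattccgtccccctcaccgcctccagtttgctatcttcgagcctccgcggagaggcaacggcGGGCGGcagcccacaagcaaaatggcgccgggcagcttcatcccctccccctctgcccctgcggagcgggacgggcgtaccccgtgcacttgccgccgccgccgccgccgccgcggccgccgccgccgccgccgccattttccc
KDM3A promoter, chr2:86441121-86441370, plus strand: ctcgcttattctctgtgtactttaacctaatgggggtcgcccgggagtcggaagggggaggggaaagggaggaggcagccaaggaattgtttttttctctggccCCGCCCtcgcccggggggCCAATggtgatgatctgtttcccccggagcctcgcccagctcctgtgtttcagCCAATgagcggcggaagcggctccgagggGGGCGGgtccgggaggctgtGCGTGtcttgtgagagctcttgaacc
KMT5A promoter, chr12:123383882-123384131, plus strand: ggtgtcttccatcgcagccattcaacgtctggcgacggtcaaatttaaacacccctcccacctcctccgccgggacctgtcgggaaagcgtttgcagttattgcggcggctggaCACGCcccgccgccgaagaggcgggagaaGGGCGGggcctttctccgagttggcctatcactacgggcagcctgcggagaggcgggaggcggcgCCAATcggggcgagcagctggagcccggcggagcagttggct
KAT2A promoter, chr17:42121368-42121617, minus strand: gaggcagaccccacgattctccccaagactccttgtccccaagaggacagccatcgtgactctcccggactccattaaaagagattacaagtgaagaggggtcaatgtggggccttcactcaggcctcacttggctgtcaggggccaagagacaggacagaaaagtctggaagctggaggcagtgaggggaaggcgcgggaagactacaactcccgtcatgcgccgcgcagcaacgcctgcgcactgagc
KAT2B promoter, chr3:20040196-20040445, plus strand: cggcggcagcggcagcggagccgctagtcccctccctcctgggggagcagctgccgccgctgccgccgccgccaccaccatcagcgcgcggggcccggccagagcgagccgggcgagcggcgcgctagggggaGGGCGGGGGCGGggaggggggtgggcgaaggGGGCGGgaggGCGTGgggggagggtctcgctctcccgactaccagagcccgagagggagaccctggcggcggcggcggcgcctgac

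The motifs were searched on both strands: the GC box GGGCGG, the NF-Y letters CCAAT, the E-box CACGTG, the hypoxia response core as ACGTG or GCGTG, an interferon response type of GAAA and GAAA with any 2 bases between, and E2F letters TTTGGCGC, TTTCCCGC, TTTCGCGC or TTTGCCGC. The E-box contains ACGTG, so those matches overlap. Each of KMT2E and KMT5A held 1 GC box match, KDM3A held 2 and KAT2B held 3, while KAT2A held no match to any motif. KDM3A held 2 matches to CCAAT and KMT5A held 1. GCGTG or its complement was found once in each of KDM3A, KMT5A and KAT2B, the KDM3A match lying 26 bases before the start. The members' promoters matched for 42 of 46 genes, all but SETD1B, DOT1L, KAT6A and KAT8. Of these 42, 28 held a GC box (66.7%, against 42.3% of all 27305 promoters of the table) and 24 held a hypoxia response core (57.1%, against 43.1%). CCAAT was in 9 (21.4%, against 33.0%), the E-box in 4 (9.52%, against 6.49%), the interferon type in 1 (2.38%, against 3.07%) and the E2F letters in 0, against 2.79%. The members' promoters had a median GC content of 66%, against 58% for all promoters, and its part in these shares was not tested. The matches are letters in a window and do not show binding.

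Enzymes of these roles work inside complexes, and 131 partner and related genes were listed, of which 124 were tested. Their counts are to be read against all tested genes, of which 22.5% were lower and 16.2% higher with shMMSET#2, and 20.6% lower and 17.3% higher with shMMSET#4. They also depend on the scaling. With equal array medians the COMPASS list had 6 genes higher with shMMSET#2 and 5 with shMMSET#4, and the DOT1L and elongation list had 3 lower and 1 higher with shMMSET#2 and 0 lower and 4 higher with shMMSET#4. Under it the acetyltransferase complex list had 1 lower and 13 higher with shMMSET#2 and 1 lower and 12 higher with shMMSET#4, and the corepressor list 2 lower and 11 higher and then 1 lower and 10 higher. Of the 13 COMPASS subunits, 3 were higher and none lower with shMMSET#2, and 1 was higher and none lower with shMMSET#4. ASH2L, a core subunit that stimulates H3K4 methylation, read 1564 with shMMSET#2 and 1169 with shMMSET#4, against 817 with shLuc. HCFC1, a host cell factor of the SETD1 complexes, read 521 with shMMSET#2 and 556 with shMMSET#4, against 335 with shLuc, although its second probe set differed in sign with shMMSET#4, at -0.28 on the log2 scale. HCFC2 read 769.7 with shMMSET#2 and 337 with shMMSET#4, against 463 with shLuc.

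Of 9 readers and partners of H3K9 methylation none passed 1.5-fold with shMMSET#2 and 1 was lower with shMMSET#4. That gene was MPHOSPH8, a subunit of the HUSH silencing complex, at 977 with shMMSET#2 and 650.1 with shMMSET#4, against 1136 with shLuc, with all 3 probe sets lower. CBX1, a heterochromatin protein, read 3103 with shMMSET#2, 4688 with shMMSET#4 and 3798 with shLuc, and WIZ, a partner of EHMT1 and EHMT2, read 365 with shMMSET#2, 432 with shMMSET#4 and 309 with shLuc.

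Of 8 DOT1L and elongation partners, 4 were lower and none higher with shMMSET#2, and 2 were lower and 1 higher with shMMSET#4. Their median log2 ratio was -0.51 with shMMSET#2 and -0.04 with shMMSET#4. AFF1, a scaffold of the super elongation complex, read 3914 with shMMSET#2 and 7127 with shMMSET#4, against 10549 with shLuc. MLLT3, or AF9, which recruits DOT1L, read 394 with shMMSET#2 and 267 with shMMSET#4, against 703 with shLuc, and MLLT10, or AF10, a DOT1L cofactor, read 1689 with shMMSET#2 and 1611 with shMMSET#4, against 2700.2 with shLuc. All 3 MLLT3 probe sets were lower with each hairpin, and 5 of 7 MLLT10 probe sets were. ELL2, an elongation factor that favours secreted immunoglobulin transcripts in plasma cells, read 2364 with shMMSET#2 and 5823 with shMMSET#4, against 4569.9 with shLuc, so it was 1.93-fold lower with the first and 1.27-fold higher with the second.

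**Figure D5:**
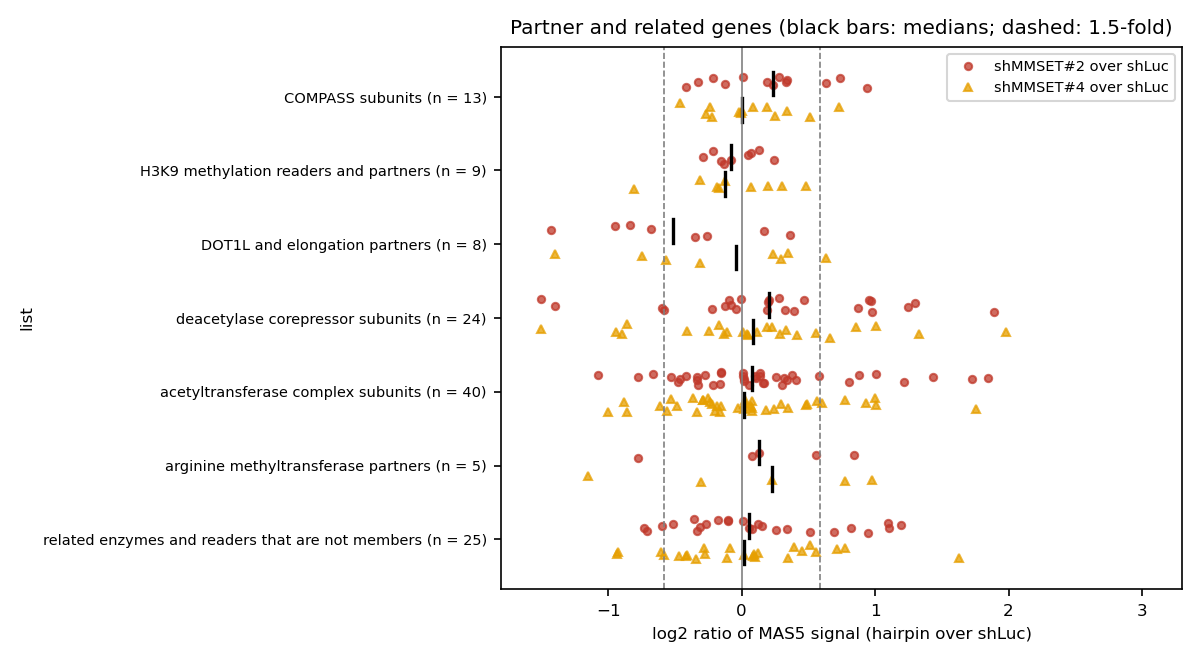
Log2 ratio of MAS5 signal over shLuc for each of the 124 tested partner and related genes in 7 lists, with shMMSET#2 (red circles) above shMMSET#4 (orange triangles), black bars at list medians and dashed lines at 1.5-fold. The DOT1L and elongation partners have the lowest median with shMMSET#2, at -0.51, and the points of the corepressor and acetyltransferase complex lists reach past 1.5-fold on both sides.

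Of 24 tested subunits of deacetylase corepressor complexes, 3 were lower and 7 higher with shMMSET#2, and 4 were lower and 5 higher with shMMSET#4. TBL1X, a subunit of the NCoR-type corepressor, read 1099 with shMMSET#2 and 1717 with shMMSET#4, against 3122 with shLuc, with all 5 probe sets lower. RBBP4, a histone chaperone of NuRD and SIN3, read 6187 with shMMSET#2 and 6565 with shMMSET#4, against 1665 with shLuc, on its brightest probe set, while its 6 probe sets spanned log2 ratios of -0.60 to 1.89 with shMMSET#2 and of -0.80 to 1.98 with shMMSET#4. MTA2, a NuRD subunit, read 162 with shMMSET#2 and 117 with shLuc, and was at the floor with shMMSET#4, at least 2.84-fold lower. Of 40 acetyltransferase complex subunits, 3 were lower and 7 higher with shMMSET#2, and 4 were lower and 6 higher with shMMSET#4. JADE3, a scaffold of the KAT7 complexes, read 559.9 with shMMSET#2 and 569 with shMMSET#4, against 169 with shLuc, and DMAP1, of the KAT5 complex, read 878 with shMMSET#2 and 489 with shMMSET#4, against 244 with shLuc. MSL1, of the KAT8 complex, read 4836 with shMMSET#2 and 3603 with shMMSET#4, against 1791 with shLuc, but 2 of its 3 probe sets lay under shLuc with shMMSET#2.

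Of 5 tested arginine methyltransferase partners, 1 was lower and 1 higher with shMMSET#2, and 1 was lower and 2 higher with shMMSET#4. BTG1, a binding partner of PRMT1, read 4561 with shMMSET#2 and 3531 with shMMSET#4, against 7829 with shLuc, with both probe sets lower. CLNS1A, a PRMT5 cofactor, read 3554 with shMMSET#2 and 3913 with shMMSET#4, against 1985 with shLuc, and its second probe set was lower in both comparisons, at -0.83 and -0.36. Of 25 tested related enzymes and readers outside the 46, 3 were lower and 6 higher with shMMSET#2, and 4 were lower and 3 higher with shMMSET#4. SIRT1, an NAD-dependent deacetylase, read 978 with shMMSET#2 and 1413 with shMMSET#4, against 456 with shLuc, on its single probe set. PRMT6, which methylates H3R2, read 1463 with shMMSET#2 and 875 with shMMSET#4, against 640.0 with shLuc, and HDAC10 read 99.9 with shMMSET#2 and 85.4 with shMMSET#4, against 163 with shLuc.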

How the data were processed

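Biotin-labelled total RNA from 3 arrays was measured, grouped by source label. The deposited values are linear signal intensities per probe set; the authors used MAS5 per the submitters' processing notes and GeneSpring per the series' design text, and their versions and settings are not given in the sources used here. Its 54675 probe set identifiers are those of the HG-U133 Plus 2.0 array, although the series' design text names a different, smaller array of that family. The 2% trimmed mean was 500.1 on each array, so no rescaling was done.

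Gene symbols came from the platform's annotation table, and older ones were replaced by matching Entrez identifiers to the GRCh38.p14 gene table. Of the probe sets other than 62 controls, 41091 had 1 symbol, 1801 had several and 11721 were unnamed here. Signals under 41.2, the 40th percentile over the arrays, were set to it before taking log2, so a ratio with this floor on 1 side gives a bound. Genes above the array's 50th percentile on at least 1 array were tested. With so few arrays, their number sets the precision. Members, lists and the naming rule (members past 1.5-fold, the brightest of each role, and up to 2 genes per partner list and hairpin with the largest ratio) were chosen with earlier results of these data known, and further members and probe sets were named after their values were seen. Steps were checked on simulated data with changes larger than the threshold in bright genes and little noise, which does not test the calls made here. Python 3.11.15, numpy 2.4.6, pandas 2.3.3 and matplotlib 3.10.9 were used. The alternatives were 2 scalings, 2 floors, 2 filters, 2 probe set summaries and a 2-fold threshold.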

Additional observations from a re-analysis of the deposited data

Results flagged for a closer look

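BRD3 and SMYD2 were singled out because the hairpins moved them to opposite sides of shLuc and the hairpin arrays differed by at least 1.5-fold. BRD3 had log2 ratios of 0.65 with shMMSET#2 and -0.36 with shMMSET#4, a difference of -1.02 for shMMSET#4 over shMMSET#2. SMYD2 had log2 ratios of -0.28 with shMMSET#2 and 0.46 with shMMSET#4, a difference of 0.74. Neither difference was tested, since each group was 1 array. Under the same-median scaling the opposite signs were lost, with BRD3 at 0.02 with shMMSET#4 and SMYD2 at 0.04 with shMMSET#2. The second probe set of SMYD2 above the median had log2 ratios of 0.07 and 0.33, on 1 side of shLuc.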

How the results depend on the processing

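No paired analysis was possible because each group holds 1 array. Of the recomputed counts of members called, 39 stayed within 1.5 times the reported value and 15 did not. For the partner lists, 191 counts did and 61 did not. Under the same-median scaling, members lower than shLuc numbered 3 with shMMSET#2 and 0 with shMMSET#4, and members higher numbered 9 and 14. With the mean over all probe sets, 3 were lower with shMMSET#2 and 3 with shMMSET#4, 3 were higher with shMMSET#4, and between the hairpins 1 was lower and 2 were higher. Leaving out the _x_at and _s_at probe sets, 2 were higher with shMMSET#4 than with shMMSET#2. At a 2-fold threshold, 1 was lower and 1 higher with shMMSET#2, 0 were lower and 0 higher with shMMSET#4 than with shLuc, and 0 were higher with shMMSET#4 than with shMMSET#2. In the 8 alternatives that kept the 1.5-fold threshold, KMT2E remained lower with shMMSET#2, KAT2A, KAT2B and KMT5A remained higher with it, and KAT2A and SUV39H2 remained higher with shMMSET#4. All of these genes have signals well above the floor, so the floors could not change these calls, and the filters change no ratio. For KAT2A and KAT2B, with 1 probe set each, the probe set summaries could not change them either. With shMMSET#4, EHMT2 reversed to -0.40 and PRMT1 to -0.19 with the mean over all probe sets. Without _x_at or _s_at probe sets, PRMT1 reversed to -1.27 and HCFC1 to -0.28 with shMMSET#4, and CLNS1A to -0.83 with shMMSET#2 and -0.36 with shMMSET#4. The second probe sets of these genes point the other way; further causes were not tested. The same-median scaling raises all ratios over shLuc by construction, so it could not undo a higher call of a gene well above the floor. With 1 array a group, no difference has a replicate check, and signals near the floor carry the least.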
